A study of Mus musculus with 23 samples.

Results

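The 9 genes studied here encode transcription factors of the naive pluripotent state and were followed in a CTCF iCLIP2 series from mouse E14 cells. They were Esrrb, Tfcp2l1, Zfp42, Nanog, Klf4, Klf2, Klf5, Tbx3 and Prdm14. The members were taken by name, and a crosslink site was counted for a gene when it lay inside its annotated body on its strand. These 9 were among 13608 genes with at least 1 site in any list. They held 2476 sites in all, and the ESC lists carried far more of them (WT 1347, ΔZF1 662, noXL 363) than the NPC lists (WT 38, ΔZF1 41, noXL 25).

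In iCLIP2, ultraviolet (UV) light links a protein to the RNA that it touches, and reverse transcription stops beside the linked nucleotide, so a read start marks a contact to the base. All lines shared an endogenous CTCF that carried a degron tag, an auxin receptor expressed from the Rosa26 locus, and a doxycycline-inducible Flag-tagged rescue CTCF at the Tigre locus, and they went back to a single edited parental clone. The rescue was wild type (WT) or lacked the RNA-binding region of zinc finger 1 (ΔZF1). Every group received 1 µM 5-Ph-IAA, which removes the endogenous protein, and 1 µg/mL doxycycline for 24 hours. Embryonic stem cells (ESCs) were kept with leukemia inhibitory factor (LIF) and inhibitors of GSK3 and MEK. Neural progenitor cells (NPCs) were obtained by 2 days of differentiation in N2B27 medium on laminin. The crosslinked groups received 400 mJ/cm2 at 254 nm, and the non-crosslinked groups (noXL) were made from the WT rescue line in ESCs and in NPCs. No noXL group of the ΔZF1 line was among the samples. There were 4 libraries in each group except NPC WT, which had 3, and RNA was recovered with anti-Flag beads from nuclei.

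The naive state is the ground state of pluripotency, close to the inner cell mass of the embryo before implantation, and mouse ESCs can be held in it by the 3 additives named above. LIF acts through STAT3 on Klf4 and Tfcp2l1, inhibition of GSK3 lifts the repression that Tcf7l1 places on Esrrb, and inhibition of MEK favours Nanog and Klf2. When the additives are withdrawn, this network is switched off within days, while the core factors Oct4 and Sox2 persist longer.

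The authors called sites on the merged libraries of a group, so there was 1 list per group, no replicate error and no test between conditions. Ranges in parentheses after a value are 95% Wilson intervals, or intervals of a ratio derived from them, and cover counting error only. Read depth is unknown from these lists. The 6 lists held between 107227 and 451137 sites, and log2 ratios described as scaled were divided by the genic sites of each list, with a pseudocount of 1. A ratio was compared where the 2 lists together had 20 sites or more on a gene, and it was called lower at -1 or less and higher at 1 or more. Of the 5 stem cell markers compared between NPC WT and ESC WT, 1 was lower (Dppa4, 35 and 5 sites) and 1 higher (Lin28a, 17 and 58), beside 10.4% and 11.5% of all genes, with a median scaled log2 ratio of -0.44. Pou5f1 had 37 and 14 sites, Sox2 35 and 9, and Utf1 19 and 11. The neural progenitor marker Nes had 2 ESC WT sites and 28 NPC WT sites, and 0 and 14 without UV. Pou3f1 had 0 and 4 WT sites, and the other five genes of that list, Sox1, Pax6, Hes5, Zic1 and Sox3, were at 0 in both WT lists. Of the other marker lists, all 5 endoderm and all 4 mesoderm genes were at 0 in every list, the trophectoderm list rested on Tfap2c (37 ESC WT sites, 10 NPC WT sites) and the neuron list on Tubb3 (10 and 7).

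The RNA around the highest-scoring contacts is printed first because it shows both kinds of site that the counts contain. Each sequence spans 29 nt of the mm10 reference on the strand of the gene, 5′ to 3′, in lower case with the called nucleotide in capitals, and the score is the one PureCLIP gave, which rates the evidence for a crosslink at that base and is not scaled to depth. The following sites had the highest ESC WT score of their gene among those with no ESC noXL site within 5 nt.

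Zfp42, 5′ UTR, chr8:43306945-43306973, minus strand, score 113: ccaaggagcugaacUccuagccgccuaga
Nanog, 3′ UTR, chr6:122714287-122714315, plus strand, score 89.9: uugaggggugagguUuaaaaguauauaca
Klf2, coding exon, chr8:72320747-72320775, plus strand, score 33.3: agaagccuuaucauUgcaacugggaagga
Klf4, coding exon, chr4:55530912-55530940, minus strand, score 31.9: uucccggccgccccUacgaccuggcggcg
Esrrb, 3′ UTR, chr12:86521473-86521501, plus strand, score 29.9: gauguauauauuuuUuaaccggcaguccu
Tfcp2l1, coding exon, chr1:118656415-118656443, plus strand, score 29.5: gaagggagugccuuUucgggugcagauug
Tbx3, coding exon, chr5:119680821-119680849, plus strand, score 21.1: cgggccagcaguucUucaacgggcacccg

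In these 7 genes the called base was a uridine. In the other two genes it was not: the corresponding site of Prdm14 was a G with a score of 18 and that of Klf5 a C with a score of 14.9, and both lay in coding exons. The next 4 sequences are the best ESC WT sites of their genes outright, shown because the same contact was called without UV.

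Nanog, 5′ UTR, chr6:122707579-122707607, plus strand, nt 105 of the gene: gagccguuggccuuCagauaggcugauuu
Tfcp2l1, non-coding exon, chr1:118627931-118627959, plus strand, nt 1 of the gene: gccgcagcccacucAgguucgagugggug
Klf2, 5′ UTR, chr8:72319046-72319074, plus strand, nt 28 of the gene: ugggccgggccacaGcacacacagucccu
Tbx3, 5′ UTR, chr5:119671006-119671034, plus strand, nt 352 of the gene: gagccgccgagcagAcgcccggggaauuc

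None of these 4 was a uridine, and each lay within the first 50 nt of an annotated transcript, as did the Zfp42 site of the other set, at nt 22 of its gene. The Nanog site scored 171 with WT, 145 with ΔZF1 and 137 without UV. Its Tfcp2l1 counterpart, on the first annotated base of the gene, scored 139, 135 and 111. At the Klf2 site the scores were 126, 109 and 139, so the list made without UV held the highest of the 3, as it did at the Tbx3 site (42.2, 40.2 and 93.1). The best site of Esrrb (score 54 in ESC WT and 41.7 in ESC ΔZF1) was a uridine with a noXL score of 0.972, and it lay 3 nt before an annotated transcript start. Counted over genes, the best ESC WT site lay within 5 nt of a noXL site in 5 of the 8 members with at least 20 sites (62.5%), and in 40.1% of 5420 genes with as many. Sites in the first 50 nt of a transcript made up 19 of the 1347 ESC WT sites in 7 genes, with a median score of 40.1 against 2.74 at the remaining ones, and 7 of the 19 were uridines.

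In ESC WT, the 9 genes held from 19 to 460 sites. Esrrb, an orphan nuclear receptor and a main target of Tcf7l1, lies at chr12:86361117-86521628 on the plus strand and held 460 sites with the WT rescue, 263 with ΔZF1 and 158 without UV. It ranked 49 among all genes of the ESC WT list by number of sites. Tfcp2l1, a CP2-family factor downstream of STAT3, at chr1:118627945-118685168 on the plus strand, held 343, 175 and 88 sites and ranked 90. In both genes every ESC count exceeded every NPC count, and in all 9 genes the order in ESCs was WT, then ΔZF1, then noXL. The whole ESC lists had the same order, with 429119, 217770 and 150821 genic sites, so it is not particular to these genes.

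Zfp42, which encodes the zinc finger protein Rex1 and serves as a marker of the naive state, lies at chr8:43295063-43306980 on the minus strand and held 164, 47 and 18 sites in the ESC lists. Nanog, the homeodomain factor that makes ESCs less dependent on LIF, at chr6:122707489-122714633 on the plus strand, held 85, 39 and 21. Nanog has near-identical processed pseudogenes, so reads of its exons may have been divided among copies and its exon counts are uncertain. Tbx3, a T-box factor, at chr5:119670669-119684724 on the plus strand, held 130, 65 and 41 sites.

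The 3 Krüppel-like factors bind many of the same GC-rich elements and can replace one another in ESCs. Klf4, at chr4:55527143-55532466 on the minus strand, held 66, 18 and 5 sites, in the same order. Klf5, at chr14:99298691-99315036 on the plus strand, held 47, 33 and 21. Klf2, at chr8:72319033-72321656 on the plus strand, held 33, 10 and 4. The ΔZF1 count of Klf5 was thus closest of the 3 to its WT count. Prdm14, which represses genes of the FGF pathway and of DNA methylation, at chr1:13113457-13127163 on the minus strand, had the fewest sites, 19, 12 and 7, and ranked 5421.

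Per length, the order was different. Zfp42 had the most ESC WT sites per kb of gene body, 13.8, followed by Klf2 with 12.6, Klf4 with 12.4 and Nanog with 11.9, whereas Esrrb had 2.87 and Prdm14 1.39. The Esrrb value divides by its whole annotated body of 161 kb, although none of its sites lay in the first 100000 nt. It therefore understates the density over the stretch that carried sites. In exons the range was narrower as a fold, from 7.41 sites per kb in Prdm14 to 21.3 in Zfp42. In introns it ran from 0 in Prdm14, whose introns cover 11.1 kb, to 12.4 in Zfp42. Scores differed between genes as well: 77.4% of the Zfp42 sites in ESC WT (70.5 to 83.2) and 70.6% of the Nanog sites (60.2 to 79.2) were above the median score of the list, compared with 43.9% of those of Esrrb (39.4 to 48.5) and 40.4% of those of Klf5 (27.6 to 54.7), the lowest share. Prdm14, the sparsest gene per kb, was above both at 52.6% (31.7 to 72.7).

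**Figure D1:**
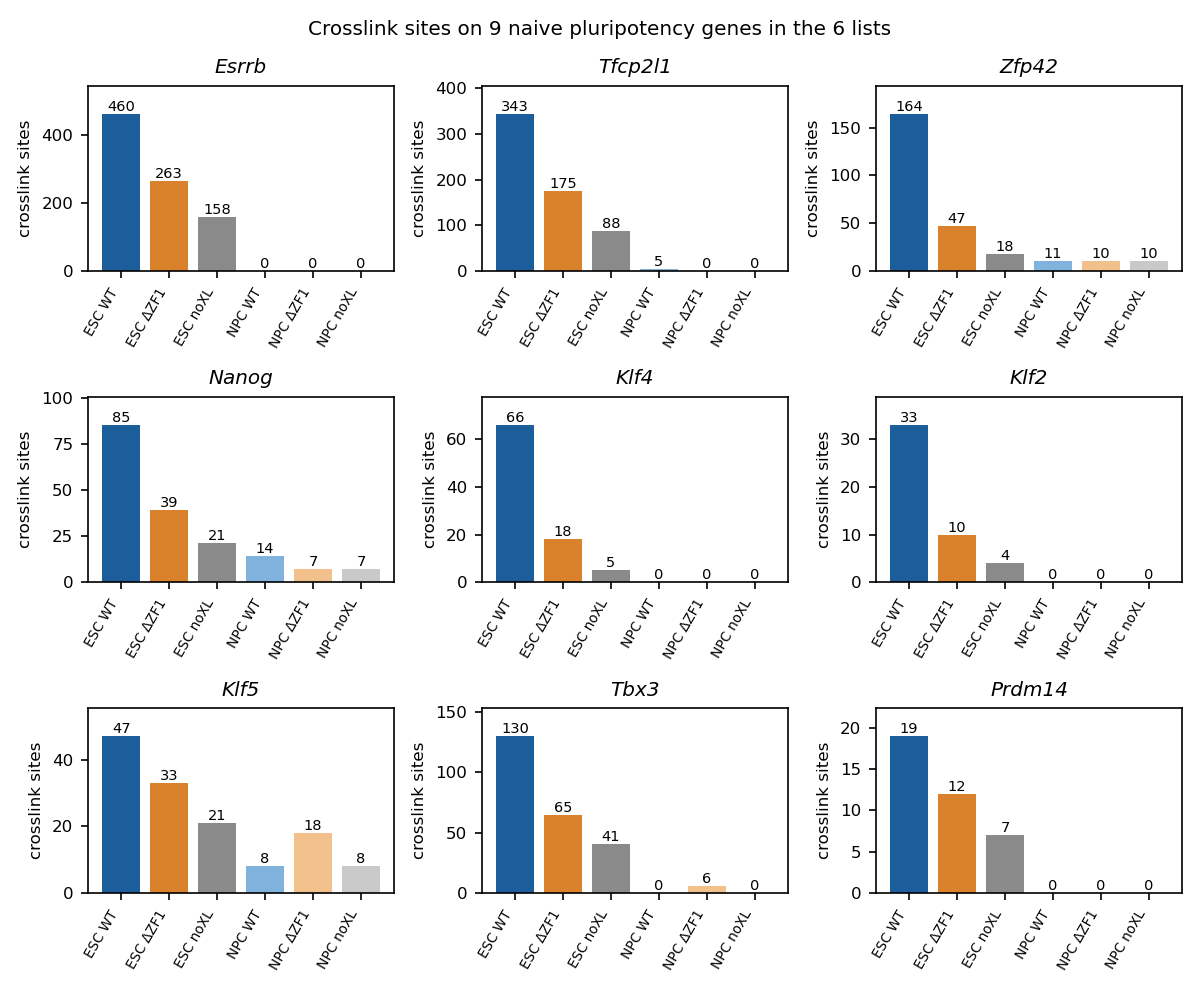
Number of called crosslink sites (vertical axis, its own linear scale from 0 in each panel) on each of the 9 genes in the 6 lists, with 1 bar per list and the count above it. The ESC WT bar is the tallest in every panel, and 5 genes (Esrrb, Klf4, Klf2, Tbx3 and Prdm14) have no site in NPC WT.

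The comparison of NPC WT with ESC WT asked how contacts with these RNAs changed as the naive state was left. In NPC WT, Esrrb, Klf4, Klf2, Tbx3 and Prdm14 had 0 sites, Tfcp2l1 had 5, Klf5 8, Zfp42 11 and Nanog 14. Of the 8 genes with enough sites, 8 were lower by the scaled ratio, where 10.4% of the 6730 genes compared were lower. In nuclei from bulk cells, fewer cells of a type and less RNA per cell cannot be told apart. Levels of these RNAs were not analysed here.

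Against a floor of 3 sites over the list, and after scaling, Esrrb was at least 82.2-fold lower in NPC WT, Tbx3 at least 23.2-fold, Klf4 at least 11.8-fold and Klf2 at least 5.9-fold. The bound for Prdm14, which had too few sites for the ratio, was at least 3.4-fold. Wilson limits for a count of 0 are slightly weaker than this floor, and with them the scaled log2 ratio was at most -6.01 for Esrrb, -4.18 for Tbx3, -3.20 for Klf4 and -2.20 for Klf2. Among genes with sites in both lists, the scaled log2 ratio was -4.94 for Tfcp2l1 (-6.44 to -3.97), -2.88 for Zfp42 (-3.87 to -2.13), -1.62 for Nanog (-2.51 to -0.90) and -1.52 for Klf5 (-2.71 to -0.60). Nanog and Klf5 therefore lay closest to the limit, and their intervals crossed it. With sites scoring at least 3.02 alone, Klf5 was at -0.91 and not lower. The median over the 8 genes was -4.57, or -3.22 with genes at 0 placed at their bound, and the median over all genes compared was 0.04. For the 9 genes summed, 31.4 of every 10000 genic ESC WT sites were theirs and 1.65 of every 10000 in NPC WT, a scaled log2 ratio of -4.21 (-4.71 to -3.79).

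The lists made with ΔZF1 and without UV were lower in NPCs too. With ΔZF1, 5 of 6 genes compared were lower, against 14.1% of all genes, and the exception was Klf5 (33 sites in ESCs and 18 in NPCs, scaled log2 ratio -0.33, -1.18 to 0.45). Without UV, 3 of 6 were lower, against 12.3% of all genes. Those 3 were Esrrb (158 to 0), Tfcp2l1 (88 to 0) and Tbx3 (41 to 0). The other three had scaled log2 ratios in noXL of -0.22 for Zfp42 (18 and 10 sites, -1.37 to 0.81), -0.73 for Klf5 (21 and 8 sites, -1.97 to 0.32) and -0.90 for Nanog (21 and 7 sites, -2.22 to 0.18). For Zfp42 the WT interval and the noXL interval did not overlap. The summed log2 ratio was -3.47 with ΔZF1 (-3.96 to -3.05) and -3.24 without UV (-3.88 to -2.71).

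**Figure D2:**
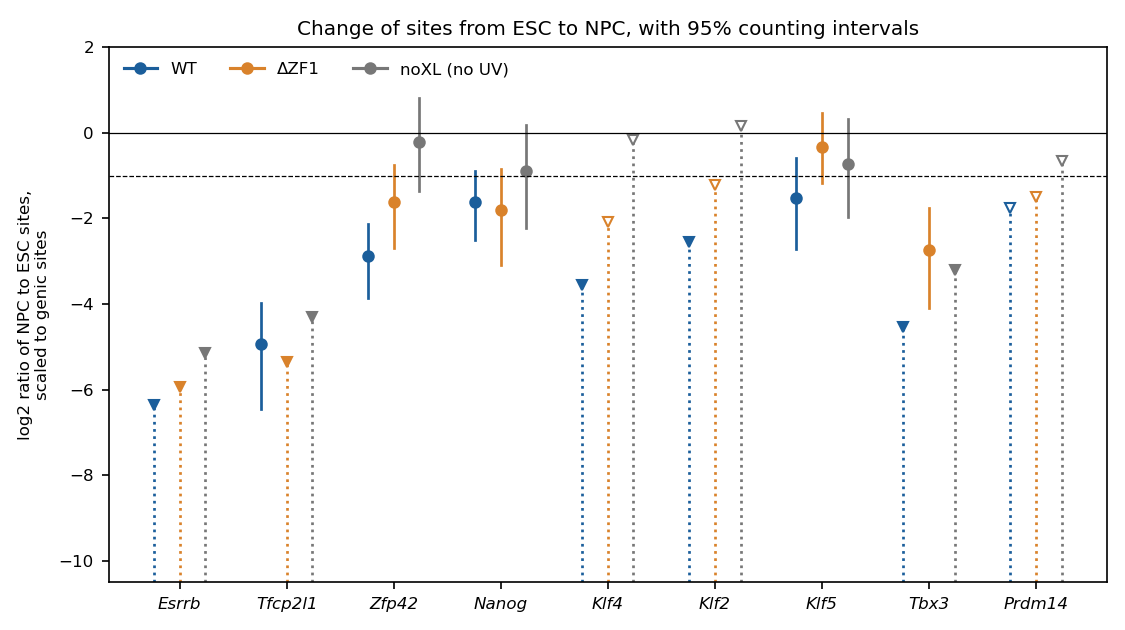
Scaled log2 ratio of NPC to ESC sites (vertical axis) for each gene in the WT, ΔZF1 and noXL lists, with 95% counting intervals, a solid line at 0 and a dashed line at -1. Triangles are genes with 0 sites in NPCs, drawn at the bound given by a floor of 3 sites with a dotted line to the end of the axis, and open symbols have fewer than 20 sites in both lists. All WT symbols lie below -1. Above it lie the noXL values of Zfp42, Nanog and Klf5, the open noXL triangles of Klf4, Klf2 and Prdm14, and the ΔZF1 value of Klf5.

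What was left in NPCs lay mostly in exons. In NPC WT, 37 of 38 sites were exonic (97.4%, 86.5 to 99.5), against 511 of 1347 in ESC WT (37.9%, 35.4 to 40.6), and over all genic sites the exon share was 73.1% in NPC WT and 66.6% in ESC WT. The ESC shares rested largely on Esrrb and Tfcp2l1, so the shares were also taken over the genes with NPC sites in a list. For WT these were Tfcp2l1, Zfp42, Nanog and Klf5, with 266 of 639 exonic in ESCs (41.6%, 37.9 to 45.5). With ΔZF1 they were Zfp42, Nanog, Klf5 and Tbx3, with 81 of 184 in ESCs (44%, 37 to 51.2) and 35 of 41 in NPCs (85.4%, 71.6 to 93.1). Without UV they were Zfp42, Nanog and Klf5, with 26 of 60 in ESCs (43.3%, 31.6 to 55.9) and 20 of 25 in NPCs (80%, 60.9 to 91.1). Gene by gene, the noXL intervals overlapped for Zfp42, at 44.4% in ESCs (24.6 to 66.3) and 50% in NPCs (23.7 to 76.3). They overlapped for Klf5 too, at 81% (60 to 92.3) and 100% (67.6 to 100), but not for Nanog, at 4.76% (0.846 to 22.7) and 100% (64.6 to 100). With WT those of Klf5 also overlapped, at 91.5% in ESCs (80.1 to 96.6) and 100% in NPCs (67.6 to 100). Over all genic sites the exon share was 60.4% in NPCs and 68.1% in ESCs with ΔZF1, and 57.4% and 59.8% without UV, so there the share was lower in NPCs. Intron sites of the 9 genes numbered 836 in ESCs and 1 in NPCs with WT, and those of all genes 143230 and 61943. Nanog had 32 and 14 exon sites and 53 and 0 intron sites, and Zfp42 had 40 and 10 exon sites and 124 and 1 intron sites.

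With exon sites alone, scaled to exon sites, the ratio of Nanog was -0.37 (-1.32 to 0.46) and not lower, and that of Zfp42 was -1.13 (-2.22 to -0.25). By this measure 7 of 8 members compared were lower, all but Nanog, and 8.97% of genes. In the NPC lists the counts with and without UV can be set side by side. Zfp42 had 11 sites in NPC WT and 10 in NPC noXL, Klf5 8 and 8, and Nanog 14 and 7. Summed, NPC WT held 38 sites and NPC noXL 25 (unscaled log2 ratio 0.58, -0.12 to 1.32), where the median over all 4765 genes compared was 1.21, and the share of uridines was 60.5% (44.7 to 74.4) and 32% (17.2 to 51.6).

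The comparison of the rescue proteins asked which contacts depended on zinc finger 1. In ESCs all 9 genes had fewer sites with ΔZF1 than with WT. Without scaling, 4 of 9 were lower by the limit (Klf4 -1.82, Zfp42 -1.78, Klf2 -1.63 and Nanog -1.10), where 47.1% of 6518 genes were. After scaling, 0 of 9 were lower, and 5.45% of all genes were. The median scaled log2 ratio was -0.01 over the members and 0.04 over all genes, and the summed ratio was -0.05 (-0.18 to 0.09). Scaled intervals that lay below 0 belonged to Zfp42 (-0.80, -1.29 to -0.36) and Klf4 (-0.84, -1.64 to -0.15). Esrrb, by contrast, had a scaled ratio of 0.17 (-0.05 to 0.39) and Klf5 of 0.48 (-0.17 to 1.11).

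Intron sites were set beside exon sites after the counts had been seen. Exon sites of the 9 genes numbered 511 with WT and 157 with ΔZF1, 3.25 times as many with WT, and over all genes the factor was 1.93. Intron sites numbered 836 and 505, a factor of 1.66 against 2.06 over all genes. In the unscaled log2 ratio of ΔZF1 to WT this was -1.70 for exons (-1.96 to -1.44) and -0.73 for introns (-0.89 to -0.57), beside -0.95 and -1.05 over all genes. The exon share was thereby 23.7% with ΔZF1 (20.6 to 27.1) and 37.9% with WT, while over all genic sites it was 68.1% and 66.6%. In ESC noXL it was 27% (22.7 to 31.8).

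Tfcp2l1 had the most exon sites of the 9 in ESC WT. They numbered 151 with WT, 29 with ΔZF1 and 20 without UV, and the intron sites 192, 146 and 68. From 48000 nt into the gene to its end, a stretch that holds the long terminal exon and was chosen after the map had been seen, it had 93 of its 343 sites with WT, 12 of 175 with ΔZF1 and 6 of 88 without UV. Klf4 had 57 exon sites with WT and 9 with ΔZF1, and 9 intron sites with each. Zfp42 differed from both, with 40 and 14 exon sites but also 124 and 33 intron sites, a factor of 3.76 in its introns.

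With exon sites alone, scaled to exon sites, 3 of 9 genes were lower with ΔZF1, against 6.14% of genes: Klf4 (-1.59, -2.71 to -0.72), Tfcp2l1 (-1.39, -2.00 to -0.86) and Klf2 (-1.17, -2.71 to -0.04). Esrrb had 62 and 21 exon sites and a ratio of -0.57 (-1.32 to 0.09), and Tbx3, with 82 and 38, had -0.14 (-0.71 to 0.39). Among genes with 20 sites or more in each list, the exon share moved from WT to ΔZF1 by a median of -11.3 percentage points over 6 members (range -27.9 to 5.4) and of 0 over 3371 genes (quartiles -6.42 and 5.64). It moved by -27.9 points in Klf5, -27.5 in Tfcp2l1, -17.1 in Nanog, -5.49 in Esrrb, -4.62 in Tbx3 and 5.4 in Zfp42.

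Within exons, the 3′ UTRs held 219 sites with WT, 54 with ΔZF1 and 33 without UV, and the coding exons 235, 80 and 54. The 3′ UTR count was thus 4.06 times as high with WT as with ΔZF1 (3.01 to 5.46) and the coding count 2.94 times (2.28 to 3.78). These factors are not scaled, and over all genes the factor for exon sites was 1.93. Factors over all genes for 3′ UTRs and coding exons apart are not given here. Nanog had 16, 0 and 0 sites in its 3′ UTR, and the site printed above is the best of the 16. Klf4 had 21, 1 and 1. Klf5 was the exception, with 13 (WT), 17 (ΔZF1) and 7 (noXL) sites there. Of these, 10 with ΔZF1, 0 with WT and 0 without UV lay between 4.5 and 14 kb, in annotated 3′ UTR before the last exon. The excess with ΔZF1 was thus not in the terminal 3′ UTR.

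**Figure D3:**
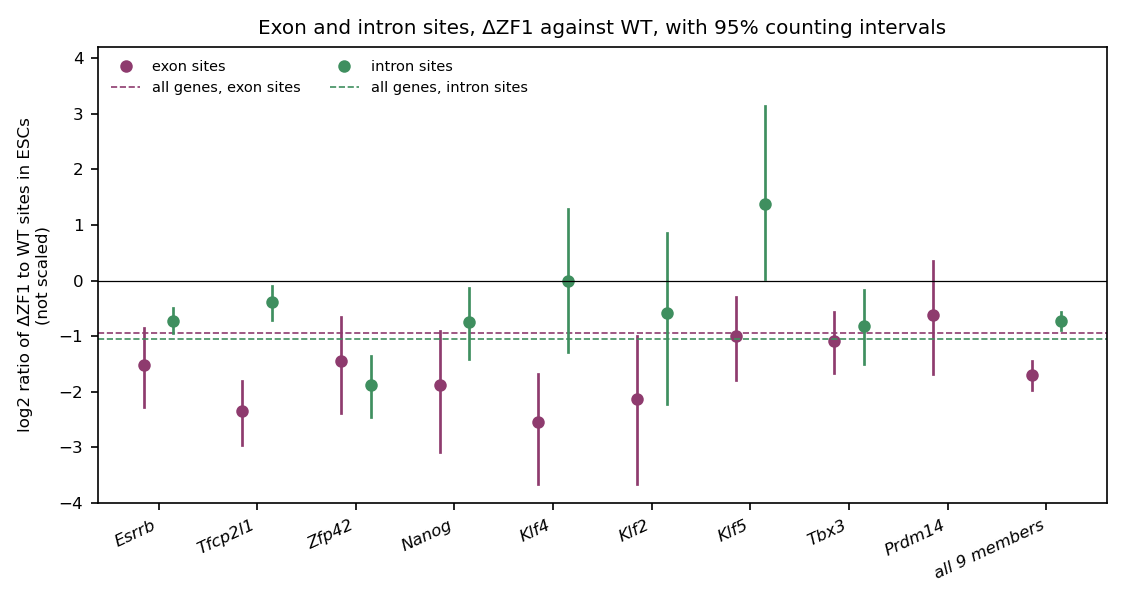
Unscaled log2 ratio of ΔZF1 to WT sites in ESCs (vertical axis) for exon and intron sites of each gene and of the 9 summed, with 95% counting intervals, and dashed lines for all genes. The summed exon value, -1.70, lies below the exon line of all genes at -0.95 and the summed intron value, -0.73, above the intron line at -1.05.

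Klf5 had its own pattern. Between 4.5 and 14 kb from the start of the gene it held 5 ESC sites with WT, 19 with ΔZF1 and 4 without UV, so that 19 of its 33 ΔZF1 sites and 5 of its 47 WT sites lay there. Of the 19, 10 were in annotated 3′ UTR, 9 in intron and 8 on uridine. In NPCs the stretch held 0 sites with WT, 4 with ΔZF1 and 0 without UV. Over the whole gene, the NPC lists held 8 sites with WT, 18 with ΔZF1 and 8 without UV. The limits of the stretch were set after the positions had been seen.

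Esrrb, the longest of the genes, was covered in part. None of its 460, 263 and 158 ESC sites lay in the first 100000 nt of the annotated gene. In each of the 3 lists the first site was at nt 108998, which is 3 nt before the annotated transcript start at 109.0 kb, and from there sites ran to the end. The annotation gives 5 transcript starts for Esrrb, at 0.0, 60.5, 60.8, 109.0 and 143.3 kb. The sites upstream of 109.0 kb were thus missing with and without UV alike, and the noXL list outlined the same stretch as the WT list.

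**Figure D4:**
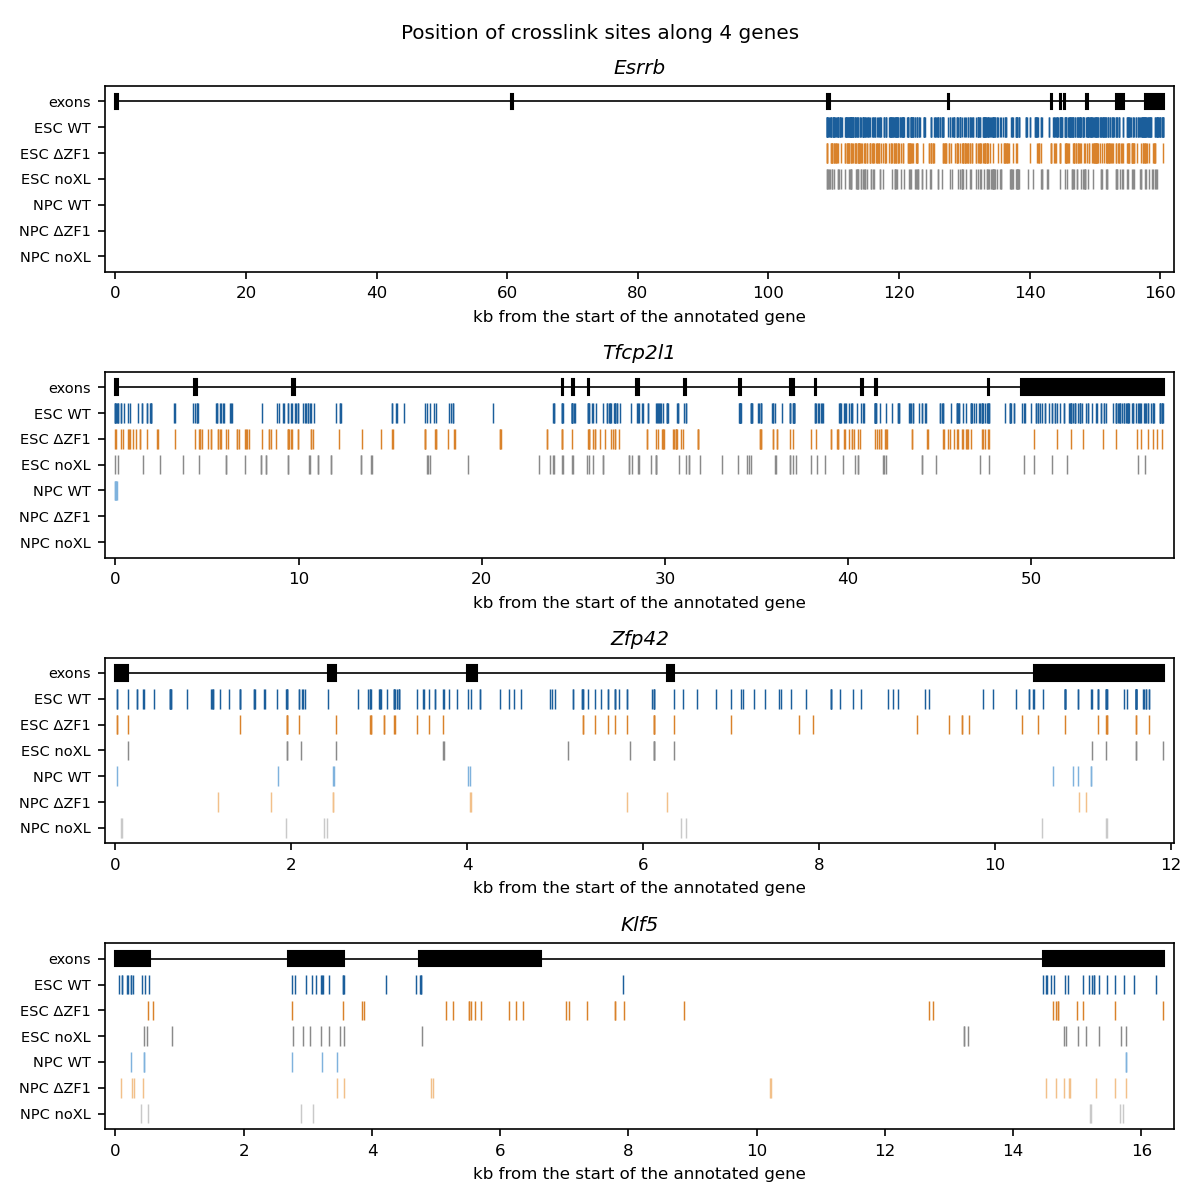
Positions of all sites along Esrrb, Tfcp2l1, Zfp42 and Klf5, with distance from the start of the annotated gene in kb on the horizontal axis, annotated exons as black boxes in the top row and 1 tick per site in a row for each list. Esrrb sites begin at 109.0 kb in the 3 ESC lists, the terminal exon of Tfcp2l1 is dense in ESC WT and sparse in ESC ΔZF1 and ESC noXL, and the middle of Klf5, from 4.5 to 14 kb, holds more ticks in ESC ΔZF1 than in any other list.

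Contacts called with UV differed from those called without it in base as well as in number. All 9 genes had more sites in ESC WT than in ESC noXL, by an unscaled log2 ratio of at least 1 in 9 of 9, where 82.8% of 6208 genes reached that limit. The unscaled median was 1.95 over the members and 1.53 over all genes. The largest values were 3.48 for Klf4 (2.45 to 4.99) and 3.12 for Zfp42 (2.49 to 3.88), and the smallest was 1.13 for Klf5 (0.43 to 1.90). After scaling, 3 of 9 reached the limit, beside 8.12% of all genes: Klf4 (1.97, 0.94 to 3.48), Zfp42 (1.61, 0.98 to 2.37) and Klf2 (1.26, 0.10 to 2.97). Klf5 (-0.38, -1.08 to 0.39) and Prdm14 (-0.19, -1.28 to 1.15) were below 0 on that scale, the median was 0.44 over the members and 0.02 over all genes, and the summed ratio was 0.38 (0.22 to 0.55). Summed over the 9, ESC WT held 5.21 times as many exon sites as ESC noXL and 3.15 times as many intron sites, beside 3.17 and 2.36 times over all genes. With ΔZF1 the factors were 1.6 and 1.91, beside 1.64 and 1.15 over all genes.

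Of the 1347 ESC WT sites, 64.4% were on uridine (61.8 to 66.9), against 49.7% with ΔZF1 (45.9 to 53.5) and 27% without UV (22.7 to 31.8). Over all genic sites the shares were 60.6%, 49.2% and 28.3%. The 4 bases were near even in ESC noXL, with 27% A, 23.1% G and 22.9% C. Zfp42 had the highest share in ESC WT, 78% (71.1 to 83.7), and Klf2, with 33 sites, the lowest, 45.5% (29.8 to 62). In exons of the 9 genes the uridine share was 68.1% with WT, 56.7% with ΔZF1 and 24.5% without UV, and in introns 62.1%, 47.5% and 27.9%, so the order held in both. From noXL to WT the share was higher by a median of 34.7 percentage points over the 5 members with 20 sites or more in each list and of 32.6 over 2325 genes. From WT to ΔZF1 it moved by -14.3 points over 6 members and by -10.8 over 3371 genes.

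**Figure D5:**
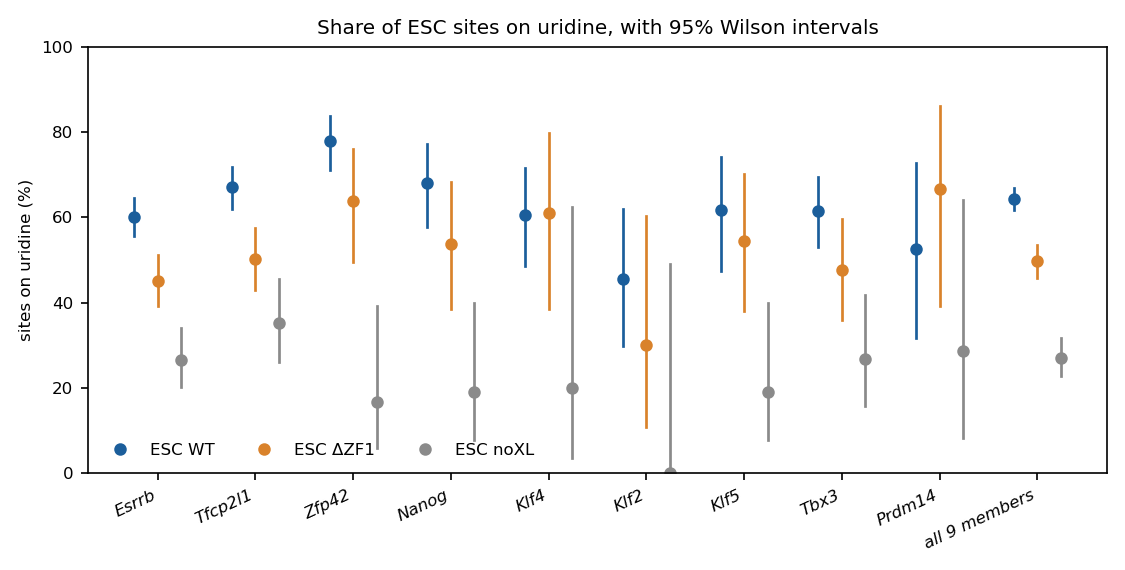
Share of ESC sites on uridine in percent (vertical axis, 0 to 100) for each gene and the 9 summed, in the WT, ΔZF1 and noXL lists, with 95% Wilson intervals. For the 9 summed, the 3 intervals are separate at 64.4%, 49.7% and 27%, and the widest intervals belong to Klf2, Klf4 and Prdm14, which have few sites.

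Positions were shared only in part. Of the 662 ΔZF1 sites in ESCs, 26.9% lay within 5 nt of a WT site (23.7 to 30.4), and of all genic ΔZF1 sites 24.2% did. The share was highest in Zfp42, where it was 74.5% of 47 sites (60.5 to 84.7), and low in Klf5, where it was 12.1% of 33 (4.82 to 27.3). Of the ESC WT sites, 8.69% lay within 5 nt of a noXL site (7.3 to 10.3), and of all genic ones 7.67%. These 117 sites had a uridine share of 41.9% (33.3 to 50.9) and a median score of 6.04, and the 1230 others had 66.5% (63.8 to 69.1) and 2.64. Of the 10 ΔZF1 sites of Klf2, 6 lay within 5 nt of a noXL site, and of all genic ΔZF1 sites 8.69% did.

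Genes around the 9 in the same network were taken from lists. Of the other naive-state genes, 10 of 11 compared were lower in NPC WT and 0 higher, where 10.4% of all genes were lower and 11.5% higher, with a median scaled log2 ratio of -4.15, or -3.30 with genes at 0 placed at their bound. Without UV, 6 of 6 compared were lower too, beside 12.3% of all genes, with a median of -5.06, or -3.44 with genes at 0 placed at their bound. Tet2, a methylcytosine oxidase, had 222 ESC WT sites and 0 in NPCs. Jam2, an adhesion molecule, had 218 and 0, Fbxo15, an F-box protein, 213 and 0, and Tdh, threonine dehydrogenase, 139 and 0. Only Zfp57, which guards imprinted methylation, was not lower among those compared (49 and 24 sites, -0.10).

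In the signalling list, 5 of 17 compared were lower and 0 higher, beside 10.4% and 11.5% of all genes, and the median was -0.16. Without UV, 4 of 13 were lower, beside the same 12.3%, and 0 higher, and those 4 were not all among the 5 lower with WT. The 5 lower with WT, named here after their values were seen, were Lifr, the LIF receptor (103 and 0 sites), Stat3, its effector (58 and 2), Socs3, a STAT3 target that inhibits the pathway (35 and 0), Il6st, the shared receptor subunit (96 and 25, at the limit), and the ligand gene Fgf4 (57 and 13). Lifr, Stat3 and Il6st were also lower without UV, and Socs3 and Fgf4 had too few sites there for the ratio. Among those with many sites, Tcf7l1, the repressor of Esrrb (253 and 162 sites, scaled log2 ratio 0.26), Ctnnb1, which encodes β-catenin (173 and 95, 0.04), and the kinase gene Gsk3b (124 and 59, -0.16) were not lower.

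Of the core pluripotency genes, 0 of 7 compared were lower and 1 was higher, beside 10.4% and 11.5% of all genes, and the median was 0.04. Mycn, a MYC family factor and the other gene of that list, had too few sites for the ratio, with 19 in ESC WT and 0 in NPC WT, the same counts as Prdm14. Lin28a, an RNA-binding protein, was the 1 that was higher, and without UV it had 8 sites in ESCs and 31 in NPCs (scaled log2 ratio 2.39). Trim28, a corepressor, had 99 and 54 sites, Sall4, a zinc finger factor, 76 and 45, and Zfp281, likewise a zinc finger factor, 52 and 26. Without UV, Sall4 had 23 and 27 sites (scaled log2 ratio 0.79) and Zfp281 9 and 15 (1.24). In the formative list 4 genes were compared. Etv5 (81 and 20 sites) and Etv4 (44 and 5), which respond to FGF signalling, were lower, and Dnmt3b, a de novo DNA methyltransferase (13 and 96), and Zic2 (1 and 21) were higher, beside the same 10.4% and 11.5%. The 2 of these with enough sites without UV were Dnmt3b (8 and 46 sites, scaled log2 ratio 2.95) and Etv5 (38 and 19, -0.40), and 12.3% of all genes were lower there.

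Over the 6 lists, the genes whose scaled profile lay nearest to that of the 9 summed, among 6046 genes with at least 50 sites, were Cdc5l, Dlc1, Kat6b, E130102H24Rik and Triml2, at Euclidean distances between 0.0337 and 0.0514, where the median gene was at 0.361. Kat6b, for example, held 1817, 918 and 552 sites in the ESC lists and 9, 10 and 15 in the NPC lists. The members with at least 50 sites were themselves not all near their sum. Tbx3 lay at 0.0521, Tfcp2l1 at 0.0586, Esrrb at 0.0798 and Nanog at 0.15, but Zfp42 at 0.202, Klf5 at 0.269 and Klf4 at 0.273.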

How the data were processed

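CTCF iCLIP2 crosslink sites of 23 libraries in 6 groups were used, as 1 deposited list per group. The authors aligned reads to mm10 with STAR, collapsed reads by their molecular identifiers (UMI-tools), pooled each group and called single nucleotides with PureCLIP; versions are not given in the sources used here. The deposited score is PureCLIP's, not scaled to depth, and libraries per group, not reads, are known. Only sites of chromosomes 1 to 19, X and Y entered, assigned to genes of GENCODE release M21 by strand. Where annotations overlapped, coding sequence came before UTRs, these before other exons, and introns last. Bases came from GRCm38, the same build as mm10, with T written as U. Genes with 20 sites in both lists together were compared (limits 1 and -1, pseudocount 1, floor 3 sites). From other lists the text names up to 4 genes with most sites in both WT lists. A gene of the signalling list is not reported. The members and lists were chosen with earlier results of these data known. Calculations were tested on simulated data. Alternatives changed score minimum, base, region, removal of sites near noXL, scaling, pseudocount, minimum, limit and distance. Python 3.11.15, numpy 2.4.6, pandas 2.3.3, pysam 0.24.0 and matplotlib 3.10.9 were used.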

Additional observations from a re-analysis of the deposited data

Results flagged for a closer look

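Before scaling, Klf5 had fewer sites with ΔZF1 in ESCs and more in NPCs: the unscaled log2 ratio of ΔZF1 to WT was -0.50 in ESCs (47 WT and 33 ΔZF1 sites) and 1.08 in NPCs (8 and 18 sites). After scaling, the ratio was above 0 in both cell types, at 0.48 (-0.17 to 1.11) and 1.67 (0.59 to 2.93), so the opposite directions are those of the unscaled counts alone. Each value rests on 1 pooled list per group, and the difference was not tested.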

How the results depend on the processing

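No paired analysis was possible because replicates had been pooled into 1 list per group. Of 8 members compared, 8 were lower in NPC WT; 7 were at the score minimum (not Klf5, -0.91), 7 with exon sites alone (not Nanog, -0.37) and 6 at a limit of 2 (not Nanog and Klf5). No scaled ratio turned its sign where its interval had excluded 0, but without scaling those of Klf5 and Prdm14 for WT to noXL turned from -0.38 to 1.13 and from -0.19 to 1.32, and those of Esrrb, Tfcp2l1, Klf5 and Prdm14 for ΔZF1 to WT turned from above to below 0. Signs also turned for ΔZF1 to WT with exon sites alone (Esrrb 0.17 to -0.57, Tfcp2l1 0.01 to -1.39, Klf5 0.48 to -0.05), at the score minimum (Tbx3 -0.01 to 0.13, the sum -0.05 to 0.01), with uridine sites alone or median scaling (Tfcp2l1, to -0.10 and -0.02) and without Zfp42 (the sum, to 0.04), and for WT to noXL of Esrrb, from 0.03 to -0.15 at the score minimum and -0.01 with exon sites alone. Exon sites alone gave a summed log2 ratio of -2.99 for NPC to ESC WT, -0.75 for ΔZF1 to WT and 0.71 for WT to noXL, 3 members lower with ΔZF1, a uridine share of 68.1% and a share of ΔZF1 sites near WT sites of 47.8%. Without scaling, the summed ratios were -5.11, -1.02 and 1.89, with 4 members lower with ΔZF1. With UV sites near a noXL site left out, 1 member was lower with ΔZF1 (Klf2, -1.49) and the near share was 22.2%. A score minimum of 3.02 gave a uridine share of 68.6% and an exon share of 46.3%. The near share was 15.4% at the same nucleotide and 62.7% within 50 nt.

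Leaving out each member in turn gave ranges of -4.76 to -3.61 for NPC to ESC WT, -0.17 to 0.04 for ΔZF1 to WT, 0.27 to 0.60 for WT to noXL, 62.5 to 66.5% for the uridine share, 35.3 to 50.6% for the exon share (50.6% without Esrrb) and 23.3 to 30.8% for the near share. An alternative chosen after seeing the data, which left out sites in the first 50 nt of transcripts, moved no summed value beyond its counting interval. Read depth is unknown, ratios of pooled lists compare those lists and not the conditions, and the ΔZF1 line had no control without UV.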

Other observations

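Uridines were also more frequent beside the called base. Over the 9 genes, the base before the site was a uridine in 54% of sites in ESC WT (51.3 to 56.6), 46.7% with ΔZF1 (42.9 to 50.5) and 27% without UV (22.7 to 31.8), and the base after it in 40.8%, 33.1% and 19.6%. At 10 nt downstream the shares were 27.2%, 25.5% and 26.2%.

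On the strand opposite to the 9 genes, ESC WT had 2 sites, ESC noXL 3, with 0 in the other four lists, all of them opposite to Esrrb.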
